A study of Arabidopsis thaliana with 12 samples.

Results

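Of 19522 genes measured in Arabidopsis thaliana seedlings, 52 were lower after glucose in the ethylene-insensitive mutant ein2-5 and higher after glucose in the wild type Col-0. They were chosen on log2(CPM + 1) group means, where CPM is reads scaled to 1000000 per library. The +Glc mean had to lie at least 0.2 below the −Glc mean in ein2-5 and at least 0.6 above it in Col-0, and the highest group had to average at least 5 CPM. Organelle loci and 1 nuclear locus were left out by the rule. Of all genes, 16011 passed the level part and were not left out. Of these 16011, 4143 met the ein2-5 limit and 4217 the Col-0 limit.

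The libraries came from whole seedlings, 3 per group. The groups were ein2-5 +Glc, seedlings carrying the ein2-5 allele of EIN2 and given 15 mM glucose for 2 h, and ein2-5 −Glc, the same mutant given none. Col-0 +Glc and Col-0 −Glc were wild-type seedlings treated in the same ways. All had been grown for 4 days in liquid MS medium lacking glucose, under equal light and dark periods, so the −Glc groups were starved of added sugar throughout. The protocol field names glucose for every sample, and the groups were therefore read from the sample titles. Nothing in the labels says whether the 3 libraries of a group were separate cultures, so the p-values measure only how far these libraries scatter, and part of that scatter may be technical.

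Ethylene is a gaseous plant hormone. Its receptors keep the kinase CTR1 active, CTR1 holds back the membrane protein EIN2, and when ethylene binds, the freed carboxy-terminal end of EIN2 lets the transcription factors EIN3 and EIL1 accumulate and switch on their targets. Glucose is both fuel and signal for a seedling, acting through hexokinase and the TOR kinase, and EIN3 is a known meeting point of glucose and ethylene signalling. A seedling without functional EIN2 is insensitive to ethylene.

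EIN2 itself averaged 49.3 ± 0.934 CPM in ein2-5 +Glc and 53.5 ± 8.90 CPM in ein2-5 −Glc, against 113 ± 7.005 CPM in Col-0 +Glc and 129 ± 6.91 CPM in Col-0 −Glc (SD, n = 3 each). Of 16 measured genes from a list of 20 known to be raised through EIN3, 13 were lower in ein2-5 and 1 was higher in the average of both glucose conditions (limma, adjusted p under 0.05), with a list median of −1.68 against 0.07 over all genes. None of the 52 genes was in that list or in the list of 10 ethylene signalling genes. Reads per library lay between 11470134 and 17461274. The lowest count of any of the 52 genes in a library was 10 reads, for AT2G40130, and none was at 0; 3 reads were worth 0.172 to 0.262 CPM.

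Libraries within a group were not alike in seed reads. The summed level of 16 seed storage and late embryo genes was 157, 2292 and 3562 CPM in the ein2-5 +Glc libraries 1, 2 and 3, against 808, 834 and 1415 CPM in ein2-5 −Glc. It was 2.56, 4.05 and 3.54 CPM in Col-0 +Glc, against 170.3, 2.23 and 6.82 CPM in Col-0 −Glc. The 52 genes also differed between libraries of a group, most of all in ein2-5 +Glc, where 47 of them were highest in library 1 and 44 were lowest in library 3. The same held for 44.9% and 48.9% of the 16011 genes that passed the level part. Their median deviation from the group mean was 0.34, −0.03 and −0.29 in ein2-5 +Glc libraries 1, 2 and 3, while that of the 16011 genes stayed between −0.05 and 0.03. In ein2-5 −Glc it was 0.13, −0.02 and −0.13, in Col-0 +Glc 0.14, 0.04 and −0.13, and in Col-0 −Glc 0.10, 0.01 and −0.11. The library numbered 1 was thus the highest and that numbered 3 the lowest in all 4 groups. In both ein2-5 groups the seed reads rose from library 1 to library 3 while the deviation fell. In Col-0 +Glc they were at most 4.05 CPM, with the most in library 2. Library 1 had the most in Col-0 −Glc. What part the seed reads have in these deviations was not tested.

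The ein2-5 response depended on which libraries were kept. One setting left out ein2-5 +Glc libraries 2 and 3 and Col-0 −Glc library 1, whose seed reads were far above those of another library of the same group. It leaves 1 library in ein2-5 +Glc, assumed to vary like the other groups, and seed reads remain unequal, at 157 CPM in that library against 808 to 1415 CPM in ein2-5 −Glc. The median response of the 52 genes in ein2-5 was then −0.06. Since the library kept is the one that stood 0.34 above its group mean, this value follows from that deviation and is no separate evidence. In that setting 33 of 52 were below 0 and 15 at or below −0.2. The Col-0 response had a median of 0.94 then, and 51 genes were at 0.6 or more. In whole seedlings, fewer cells of a type and less RNA per cell cannot be told apart.

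**Figure D1:**
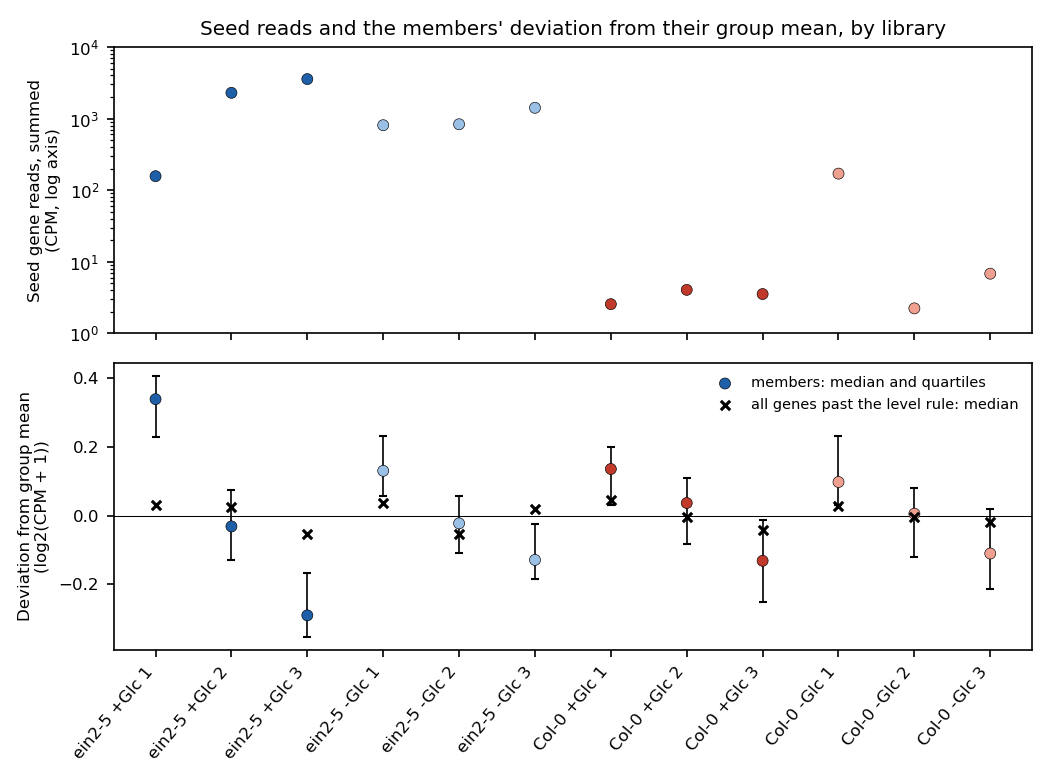
Top: summed CPM of 16 seed storage and late embryo genes in each of the 12 libraries, on a log axis, coloured by group. Bottom: deviation of the 52 genes from their group mean on the log2(CPM + 1) scale in each library, as the median with quartiles, and the median of the 16011 genes past the level part as crosses; ein2-5 +Glc library 1 stands at 0.34 and library 3 at −0.29, and the library numbered 1 is the highest in every group.

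Both glucose responses, and hence their difference, were used to choose the genes, so their values are a description and carry no test. The ein2-5 response lay between −1.39 and −0.20 log2 units with a median of −0.34, where all genes had a median of 0.09. The Col-0 response lay between 0.60 and 1.95 with a median of 0.90, where all genes had 0.19. Under scaling by TMM factors, the Col-0 median of all genes was 0.01 and that of the 52 genes 0.71. limma called 13 of 52 lower with glucose in ein2-5, as it did 16.4% of all genes, and 52 of 52 higher in Col-0, as it did 40.6%. Between the ein2-5 groups, deviations of same-number libraries correlated at 0.564, 0.125 and 0.425. The labels state no pairing, and it is unsure for number 2. With the number as a replicate block the ein2-5 count was 25 in the fit of all libraries (18.0% of all genes). It was 24 in a fit of the ein2-5 libraries alone (16.6%). The +Glc libraries lay wholly below the −Glc ones for 15 genes in ein2-5 (18.0% of all genes) and wholly above them for 47 in Col-0 (45.9%). In ein2-5 the +Glc library lay below the −Glc library of its number in all 3 pairs for 41 genes (26.4%). For 25 genes all 3 Col-0 +Glc libraries lay above all 9 others (12.2%). Both responses were free of overlap for 13 genes (0.574%), and limma called both for 13 (0.251%).

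**Figure D2:**
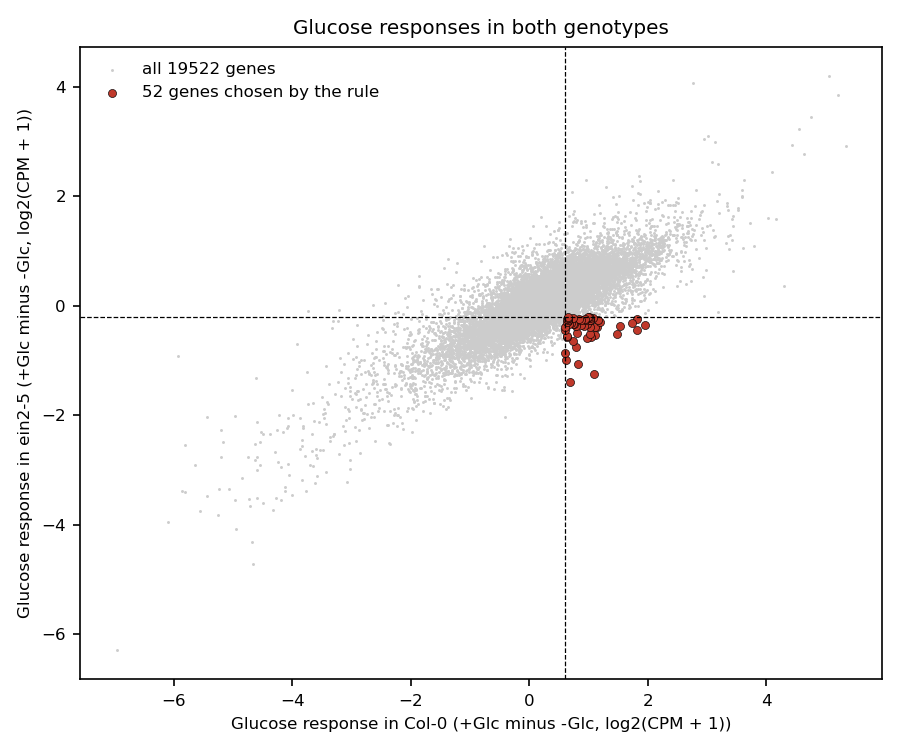
Glucose response in Col-0 (x axis) and in ein2-5 (y axis), both as +Glc minus −Glc on the log2(CPM + 1) scale, for all 19522 genes in grey and the 52 chosen genes in red; dashed lines mark 0.6 and −0.2. The 52 genes fill the corner right of and below the lines, and most lie close to the lower threshold, with a median ein2-5 response of −0.34.

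The edges of the rule ran through a continuum. Just inside the Col-0 limit stood AT2G28720 at 0.603, AT1G60590 at 0.608 and GUN4 at 0.609, and just outside it CER2 at 0.5997, KNAT4 at 0.596 and MEE40 at 0.585. Just inside the ein2-5 limit stood PUP7 at −0.204, GA2OX2 at −0.207 and PLA2A at −0.208, and just outside it AT4G13495 at −0.198, AT4G05631 at −0.195 and AT1G71140 at −0.178. At the level limit, KT2/3 with 5.17 CPM, AT1G30280 with 5.60 CPM and AT5G64780 with 5.78 CPM were inside, and AT4G34550 with 3.63 CPM, AT1G51890 with 3.40 CPM and AT1G23530 with 3.14 CPM were outside.

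The genes separated by how their 4 group means were ordered. In 15 genes both Col-0 means lay above both ein2-5 means, and in 5 (AT1G60590, AT1G66100, AT2G17972, PDLP3 and THI2.2) both ein2-5 means lay above both Col-0 means. In the remaining 32 the means of the genotypes interleaved. Col-0 +Glc was the highest group for 36 genes and ein2-5 −Glc for the other 16. Without glucose the ein2-5 mean was above the Col-0 mean for 37 genes and below it for 15, and with glucose it was below the Col-0 mean for 47. Without glucose limma called 26 of the 52 higher in ein2-5 (35.3% of all genes) and 5 lower (16.0%). With glucose it called 1 higher (26.1%) and 34 lower (20.9%), and for 34 the ein2-5 +Glc libraries lay wholly below the Col-0 +Glc ones (25.0%). The gap between these contrasts is set by the rule, so they too are a description.

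The average genotype difference, the mean of ein2-5 minus Col-0 over both glucose conditions, was tested. Its errors are uncorrelated with those of both responses in this balanced design if the groups vary alike. The rule asked for unequal responses, 0.6 in Col-0 and −0.2 in ein2-5, on a scale that understates those of low genes. What part this has in the counts was not tested. In limma with Benjamini-Hochberg adjustment over 19522 genes, 22 of the 52 genes were lower in ein2-5, or 42.3%, where 23.1% of all genes and 25.8% of the 16011 past the level part were. Another 15, or 28.8%, were higher, where 36.8% of all genes and 35.6% of those past the level part were, and 15 did not pass. The values ran from −2.87 to 1.04 log2 units with a median of −0.25, against 0.07 over all genes. Markers of tissues and of cell division differed in the same contrast, and their part in the counts of the 52 genes was not tested.

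Of the marker lists, 17 of 17 mitosis and cytokinesis genes were higher in ein2-5 on average (limma, adjusted p under 0.05), with a median of 1.30. Their summed level was 271 to 283 CPM in ein2-5 +Glc and 261 to 284 CPM in ein2-5 −Glc, against 97.1 to 98.2 CPM in Col-0 +Glc and 87.4 to 122 CPM in Col-0 −Glc. Of 19 root hair genes 18 were higher and 1 was lower, with a median of 0.85, and they summed to 326 to 483 CPM in ein2-5 +Glc and 189 to 249.7 CPM in ein2-5 −Glc, against 199 to 239 CPM in Col-0 +Glc and 108 to 126 CPM in Col-0 −Glc. Of 16 light harvesting and RuBisCO small subunit genes 8 were lower and 0 higher, with a median of −0.35. These summed to 37971 to 51410 CPM in ein2-5 +Glc and 47305 to 64261 CPM in ein2-5 −Glc, against 58534 to 62769 CPM in Col-0 +Glc and 70388 to 75519 CPM in Col-0 −Glc. The 16 seed genes were all higher, with a median of 4.43. No mitosis, root hair or light harvesting gene measured was at 0 in any library, and none of the 52 genes was in these lists.

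**Figure D3:**
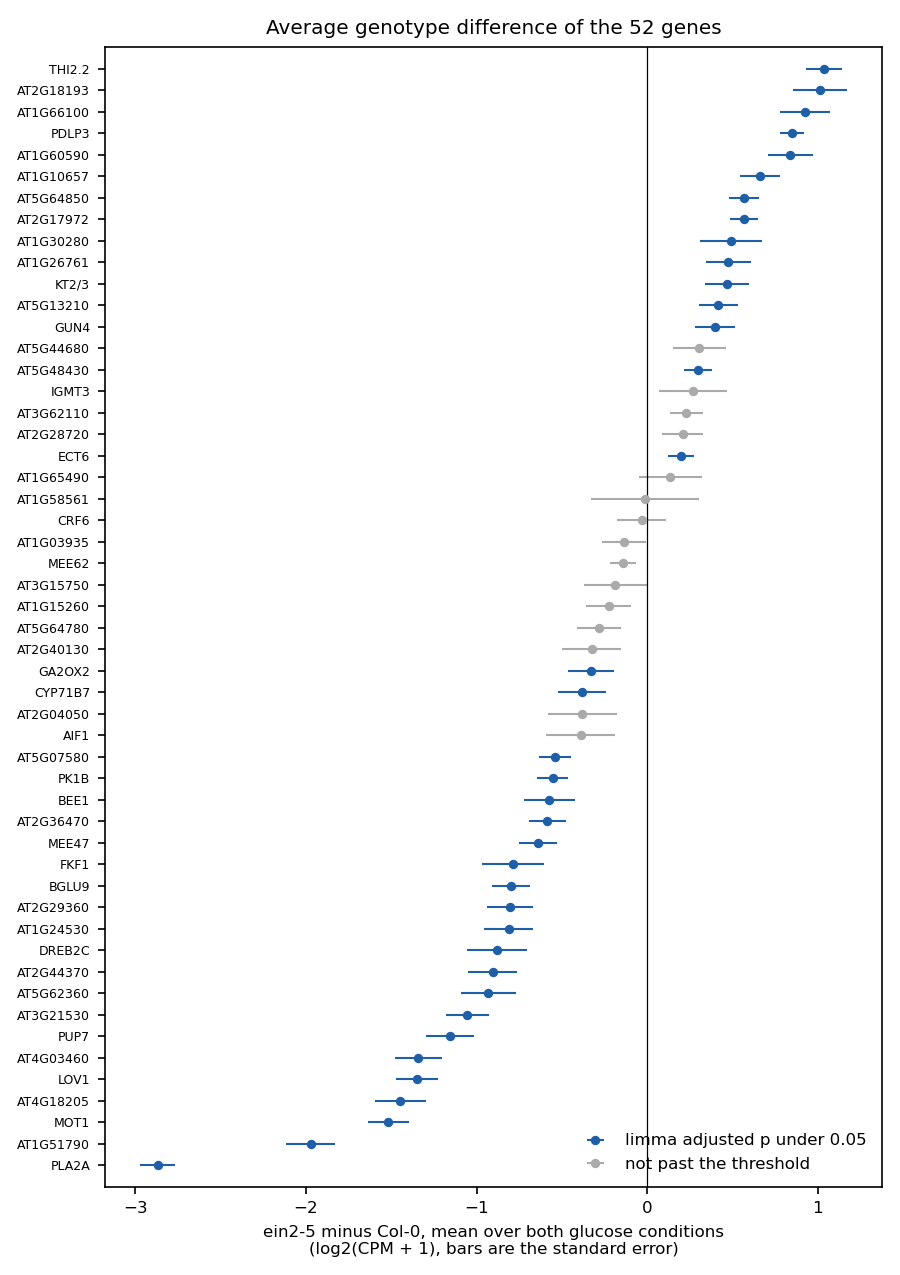
Average genotype difference (ein2-5 minus Col-0 on the log2(CPM + 1) scale, mean over both glucose conditions) of each of the 52 genes with its standard error; blue points passed an adjusted p of 0.05 in limma and grey ones did not. The genes spread on both sides of 0, from PLA2A at −2.87 to THI2.2 at 1.04.

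Among the 7 regulators of transcription, 4 were lower in ein2-5 on average, none was higher and 3 did not pass. Beside the counts of this and every later role group stand 23.1% lower and 36.8% higher over all genes. Over the 52 genes these shares were 42.3% and 28.8%. The roles used here and below were assigned by hand from the annotation once the values were known, and no difference between role groups was tested. LOV1, a NAC domain factor known for delaying flowering, had 13.98, 11.6 and 8.195 CPM in ein2-5 +Glc, against 17.97, 13.99 and 12.5 CPM in ein2-5 −Glc. It had 59.5, 52.1 and 42.4 CPM in Col-0 +Glc, against 24.1, 23.3 and 20.5 CPM in Col-0 −Glc. The Col-0 +Glc libraries stood above all others and the ein2-5 libraries below all Col-0 libraries. Its response was −0.38 ± 0.178 in ein2-5 and 1.14 ± 0.178 in Col-0, and its average genotype difference was −1.35 ± 0.126 (limma, adjusted p = 1.48e-06).

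CRF6, a cytokinin response factor of the AP2/ERF family, behaved otherwise. It had 13.1, 7.26 and 6.71 CPM in ein2-5 +Glc, against 14.5, 16.3 and 15.04 CPM in ein2-5 −Glc, and 16.2, 17.2 and 14.2 CPM in Col-0 +Glc, against 11.1, 7.16 and 8.42 CPM in Col-0 −Glc. In neither genotype did the +Glc and −Glc libraries overlap, and its ein2-5 response of −0.76 ± 0.201 was the lowest of the regulators. The average genotype difference was −0.03 ± 0.142 (limma, adjusted p = 0.858). Without ein2-5 +Glc 2 and 3 and Col-0 −Glc 1 it was 0.32, on the other side of 0. That value rests on 1 ein2-5 +Glc library and on unequal groups, so no test is read from it.

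DREB2C, an AP2/ERF factor of the heat and drought responses, had 13.2, 9.53 and 7.498 CPM in ein2-5 +Glc, against 20.2, 13.9 and 14.1 CPM in ein2-5 −Glc. It had 40.2, 35.6 and 21.2 CPM in Col-0 +Glc, against 22.2, 19.5 and 13.9 CPM in Col-0 −Glc. Its +Glc and −Glc libraries were apart in ein2-5 and overlapped in Col-0, and its average genotype difference was −0.88 ± 0.176 (limma, adjusted p = 7.91e-04). AT5G07580, annotated as an ethylene-responsive transcription factor, had the highest level per length of the genes in Col-0 +Glc, 170 CPM per kb of exon.

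AT5G07580 had 58.3, 45.2 and 44.1 CPM in ein2-5 +Glc, against 67.005, 61.2 and 57.3 CPM in ein2-5 −Glc, and 120.4, 110.3 and 86.7 CPM in Col-0 +Glc, against 65.8, 62.7 and 56.5 CPM in Col-0 −Glc. All 3 Col-0 +Glc libraries were above the other 9. The genotypes differed by 0.00 log2 units without glucose and by −1.09 with it, and by −0.54 ± 0.0925 on average (limma, adjusted p = 2.38e-04).

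BEE1, a bHLH factor raised by brassinosteroid, responded by −0.27 ± 0.211 in ein2-5 and 0.88 ± 0.211 in Col-0 and was lower in ein2-5 on average, at −0.57 ± 0.149 (limma, adjusted p = 0.00492). AIF1, an atypical bHLH protein that opposes growth-promoting bHLH factors, had 119, 100.5 and 49.7 CPM in Col-0 +Glc, against 64.8, 56.2 and 34.7 CPM in Col-0 −Glc. These groups overlapped, and its average genotype difference of −0.39 ± 0.202 did not pass. AT2G40130, which the annotation also names SMXL8, a family of strigolactone signalling repressors, had the largest Col-0 response of the regulators at 1.74 ± 0.243, on 0.63 to 1.5 CPM in Col-0 −Glc.

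Of the 5 kinases and other signalling proteins, 3 were lower in ein2-5 on average, 1 was higher and 1 did not pass. AT1G51790, a leucine-rich repeat protein kinase, had 14.3, 10.1 and 8.195 CPM in ein2-5 +Glc, against 13.4, 10.7 and 14.96 CPM in ein2-5 −Glc. It had 94.3, 62.3 and 67.6 CPM in Col-0 +Glc, against 37.99, 34.1 and 26.4 CPM in Col-0 −Glc. The ein2-5 libraries overlapped one another and lay below every Col-0 library. Its average genotype difference of −1.97 ± 0.143 was the second lowest of the 52 genes (limma, adjusted p = 1.86e-07).

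PDLP3, a receptor-like protein of the plasmodesmata, the channels between plant cells, went the other way between genotypes. It had 54.2, 48.4 and 44.99 CPM in ein2-5 +Glc, against 57.4, 60.2 and 59.5 CPM in ein2-5 −Glc, and 41.5, 43.9 and 38.3 CPM in Col-0 +Glc, against 20.4, 18.7 and 23.9 CPM in Col-0 −Glc. No 2 of the 4 groups overlapped. It was higher in ein2-5 on average by 0.85 ± 0.0702 (limma, adjusted p = 5.23e-07).

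FKF1, a blue-light receptor and F-box protein of the flowering pathway, had 149.9, 119.7 and 78.8 CPM in Col-0 +Glc, against 78.6, 79.03 and 55.7 CPM in Col-0 −Glc; the highest −Glc library lay above the lowest +Glc library. It was lower in ein2-5 on average, at −0.79 ± 0.181 (limma, adjusted p = 0.00219). For the difference of the responses limma called 49 of the 52 genes (13.3% of all genes), all but FKF1, AIF1 and IGMT3. The rule chose the genes on both responses, so this count is a description and no test. PK1B, a cytoplasmic kinase, was lower in ein2-5 on average, at −0.55 ± 0.0883 (limma, adjusted p = 1.36e-04), and MEE62, a leucine-rich repeat kinase, did not pass, at −0.14 ± 0.0759.

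Of the 5 transporters and channels, 3 were lower in ein2-5 on average, 1 was higher and 1 did not pass. MOT1, which takes up molybdate for the molybdenum enzymes, had 5.15, 4.31 and 3.23 CPM in ein2-5 +Glc, against 6.24, 5.93 and 4.86 CPM in ein2-5 −Glc. It had 31.7, 23.9 and 27.4 CPM in Col-0 +Glc, against 11.3, 8.19 and 7.56 CPM in Col-0 −Glc. Each ein2-5 library was below each Col-0 library. The average genotype difference was −1.52 ± 0.121 (limma, adjusted p = 3.93e-07), with responses of −0.36 ± 0.171 in ein2-5 and 1.53 ± 0.171 in Col-0.

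PUP7, a purine permease, and AT4G18205, annotated as a nucleotide-sugar transporter family protein, are neighbours on chromosome 4 with 153 bases between them, at 10071481 to 10073557 and 10073711 to 10075370 of TAIR10.1, both on the plus strand. They were the only pair of the 52 genes within 10 kb of each other. Their exons were 89.8% identical over 60.9% of PUP7, and reads may be shared between them. AT4G18205 had 16.2, 11.8 and 9.42 CPM in ein2-5 +Glc, against 20.2, 16.99 and 16.7 CPM in ein2-5 −Glc, and 62.1, 72.96 and 79.1 CPM in Col-0 +Glc, against 16.6, 29.6 and 30.5 CPM in Col-0 −Glc. Neither genotype's +Glc and −Glc libraries overlapped.

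PUP7 was lower than AT4G18205 in Col-0 +Glc, with a level of 11.8 CPM per kb of exon against 45.2. PUP7 had 9.32, 5.07 and 5.06 CPM in ein2-5 +Glc, against 7.89, 7.66 and 6.53 CPM in ein2-5 −Glc, where the groups overlapped. It had 21.01, 27.2 and 22.7 CPM in Col-0 +Glc, against 8.93, 12.7 and 12.5 CPM in Col-0 −Glc, where they did not. The average genotype difference was −1.16 ± 0.139 for PUP7 (limma, adjusted p = 1.33e-05) and −1.45 ± 0.152 for AT4G18205 (limma, adjusted p = 4.19e-06).

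The start regions of this pair were alike, and both held a GCC box, the GCCGCC motif known to be bound by ERF transcription factors. The 300-base windows below run from 250 bases before to 50 after the annotated start (RefSeq, TAIR10.1, plus strand), with the GCC box in capitals. The third is CRF6, the only other gene of the 52 with the motif.
PUP7, chr4:10071231-10071530: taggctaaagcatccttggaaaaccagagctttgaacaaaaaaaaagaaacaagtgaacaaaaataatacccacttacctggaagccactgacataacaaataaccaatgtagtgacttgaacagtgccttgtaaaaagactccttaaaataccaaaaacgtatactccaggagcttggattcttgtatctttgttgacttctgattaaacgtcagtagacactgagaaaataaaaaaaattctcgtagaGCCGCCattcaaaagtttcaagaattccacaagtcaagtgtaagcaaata
AT4G18205, chr4:10073461-10073760: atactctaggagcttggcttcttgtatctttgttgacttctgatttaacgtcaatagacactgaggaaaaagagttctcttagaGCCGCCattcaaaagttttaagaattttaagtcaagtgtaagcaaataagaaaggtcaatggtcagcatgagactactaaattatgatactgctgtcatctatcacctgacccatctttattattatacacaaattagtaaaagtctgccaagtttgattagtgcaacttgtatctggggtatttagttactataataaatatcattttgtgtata
CRF6, chr3:22804748-22805047: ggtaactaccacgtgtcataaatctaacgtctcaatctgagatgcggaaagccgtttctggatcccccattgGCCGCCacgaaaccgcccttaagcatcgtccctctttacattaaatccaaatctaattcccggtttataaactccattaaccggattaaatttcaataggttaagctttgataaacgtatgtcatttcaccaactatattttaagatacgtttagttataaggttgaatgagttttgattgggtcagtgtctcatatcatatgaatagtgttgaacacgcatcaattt

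A stretch of 138 aligned bases, −88 to 50 from the start of PUP7 and −250 to −119 from that of AT4G18205, was 87.7% identical and held the box in both. The box therefore begins at base 1 of the annotated PUP7 transcript and 166 bases before the start of AT4G18205; in CRF6 it begins 178 bases before the start. Searched on both strands, GCCGCC was in 3 of 50 windows of protein-coding genes among the 52, or 6.0%, and in 2.58% of 18919 windows of all protein-coding genes of the table, and 2 of the 3 windows share this one stretch.

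The core of the known EIN3 binding site, ATGTA, was searched on both strands as well. It was in 26 of the 50 windows, or 52%, against 56.2% of all windows, and the longer form ATGTACCT was in none, against 0.465%. The windows of LOV1 and AT5G62360, from the plus strand, show single matches in capitals (TACAT is ATGTA on the other strand), in LOV1 8 bases into the transcript and in AT5G62360 before the start.
LOV1, chr2:647288-647587: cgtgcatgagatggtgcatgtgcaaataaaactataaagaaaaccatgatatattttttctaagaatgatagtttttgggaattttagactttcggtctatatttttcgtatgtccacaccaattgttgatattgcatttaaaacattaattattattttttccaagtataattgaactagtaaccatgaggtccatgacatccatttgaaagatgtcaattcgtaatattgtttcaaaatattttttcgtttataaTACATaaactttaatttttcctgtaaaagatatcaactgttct
AT5G62360, chr5:25040290-25040589: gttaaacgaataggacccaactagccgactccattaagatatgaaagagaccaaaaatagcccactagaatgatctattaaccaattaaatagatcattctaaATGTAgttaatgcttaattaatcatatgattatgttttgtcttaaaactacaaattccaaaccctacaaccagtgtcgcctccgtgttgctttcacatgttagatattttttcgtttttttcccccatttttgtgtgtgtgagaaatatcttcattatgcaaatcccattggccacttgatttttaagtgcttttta

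Other motifs were counted in the same way. The G-box CACGTG was in 6 windows (12.0% against 9.05% of all), the W box TTGACC in 10 (20% against 14.3%), the site II element TGGGCC in 7 (14% against 19.0%), TATCCA in 6 (12.0% against 16.6%), the telo box AAACCCTA in 2 (4.0% against 5.46%) and the E2F site TTCCCGCC in 0 (0% against 0.751%). A match is a run of letters and not a binding site. The median GC content was 32.5% in the windows of these genes and 32% in all windows.

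The MATE efflux family protein AT2G04050 had the widest gap between the responses, −2.34 ± 0.403. It had 4.11, 3.93 and 2.27 CPM in ein2-5 +Glc, against 8.37, 11.6 and 8.36 CPM in ein2-5 −Glc, and 8.09, 15.6 and 12.7 CPM in Col-0 +Glc, against 8.21, 3.21 and 4.53 CPM in Col-0 −Glc. The ein2-5 groups did not overlap, and the Col-0 groups did, by 1 library each. A copy that the table does not hold, AT2G04070, is 90.3% identical over 80.2% of its exons, so its reads may be mixed. KT2/3, a potassium channel, was higher in ein2-5 on average by 0.47 ± 0.127 (limma, adjusted p = 0.00623), at 2.88 to 5.83 CPM in ein2-5 and 1.89 to 4.63 CPM in Col-0.

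**Figure D4:**
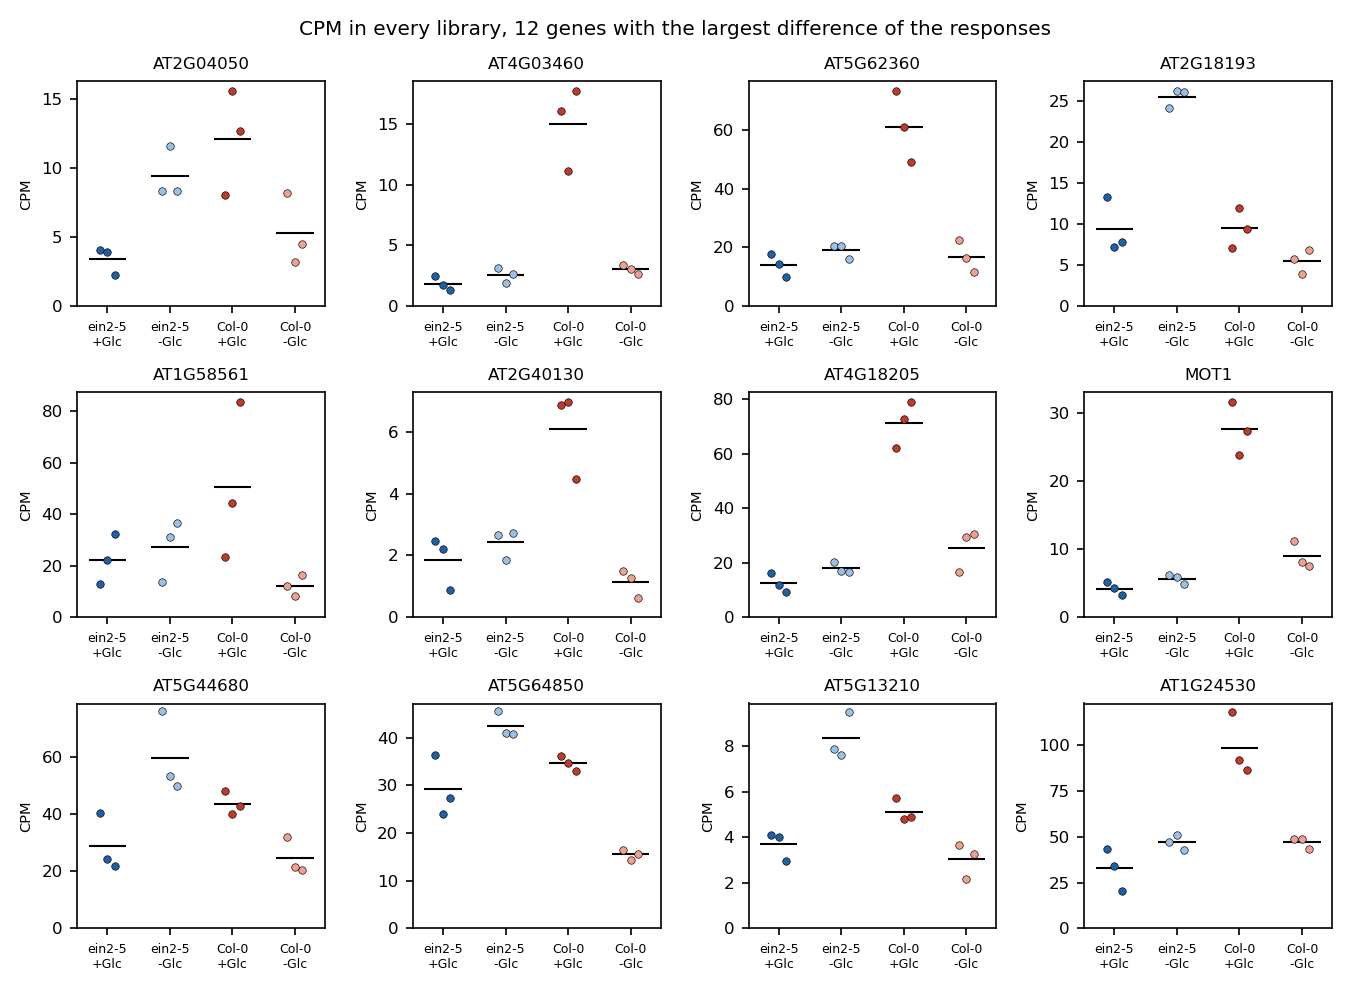
CPM in each of the 12 libraries (points) with the group mean (lines) for the 12 genes with the largest difference between the responses, one panel per gene, with the 4 groups along each x axis. AT4G03460, AT5G62360, AT4G18205 and MOT1 are high in Col-0 +Glc alone, while AT2G18193, AT5G44680 and AT5G13210 are highest in ein2-5 −Glc.

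Of the 7 cell wall and defence proteins, 5 were higher in ein2-5 on average, 1 was lower and 1 did not pass, where 36.8% of all genes were higher. Of the 7, 5 had their highest mean in ein2-5 −Glc. This group was put together by hand once the values were known, and no excess was tested. By keyword of the product name, only AT5G62360 fell in the cell wall class. AT5G62360, of the invertase and pectin methylesterase inhibitor family, was the lower one. It had 17.8, 14.4 and 9.85 CPM in ein2-5 +Glc, against 20.6, 20.5 and 16.2 CPM in ein2-5 −Glc, and 73.3, 60.9 and 49.2 CPM in Col-0 +Glc, against 22.6, 16.3 and 11.8 CPM in Col-0 −Glc. The other 9 libraries all lay well below the Col-0 +Glc ones, and the average genotype difference was −0.93 ± 0.162 (limma, adjusted p = 2.81e-04).

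THI2.2, a thionin, one of the small antimicrobial peptides, had 163, 112 and 105 CPM in ein2-5 +Glc, against 159.9, 149 and 129 CPM in ein2-5 −Glc. It had 82.1, 89.3 and 73.7 CPM in Col-0 +Glc, against 52.1, 47.2 and 55.6 CPM in Col-0 −Glc. Every ein2-5 library stood above every Col-0 library, and the ein2-5 groups overlapped. The average genotype difference of 1.04 ± 0.104 was the highest of the 52 (limma, adjusted p = 2.69e-06). The second thionin, AT1G66100, was lower in level and higher in ein2-5 on average by 0.93 ± 0.147 (limma, adjusted p = 1.29e-04).

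AT1G60590, a pectin lyase-like protein, had 12.02, 10.4 and 6.54 CPM in ein2-5 +Glc, against 19.5, 19.99 and 14.8 CPM in ein2-5 −Glc, and 9.52, 9.41 and 7.28 CPM in Col-0 +Glc, against 5.79, 5.498 and 4.81 CPM in Col-0 −Glc. The ein2-5 −Glc libraries were the highest of all. It was higher in ein2-5 on average by 0.84 ± 0.132 (limma, adjusted p = 1.21e-04). AT1G26761, annotated as arabinanase, levansucrase or invertase, was higher by 0.48 ± 0.134 (limma, adjusted p = 0.00797) and the aspartyl protease AT5G48430 by 0.30 ± 0.0821 (limma, adjusted p = 0.00722). The pectin lyase-like AT3G62110 did not pass, at 0.23 ± 0.0952.

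Of the 8 metabolic enzymes, 5 were lower in ein2-5 on average, 1 was higher and 2 did not pass. PLA2A, a lipid acyl hydrolase that acts in defence, had 1.35, 0.984 and 1.05 CPM in ein2-5 +Glc, against 1.17, 1.87 and 1.37 CPM in ein2-5 −Glc. It had 22.7, 18.6 and 26.9 CPM in Col-0 +Glc, against 10.7, 10.996 and 10.7 CPM in Col-0 −Glc. All ein2-5 libraries were below 2 CPM and those of the 2 conditions overlapped, so the ein2-5 response of −0.21 ± 0.147 concerns a level near 1 CPM. The average genotype difference of −2.87 ± 0.104 was the lowest of the 52 (limma, adjusted p = 7.74e-10).

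BGLU9, a beta-glucosidase, averaged 62.5 ± 15.6 CPM in ein2-5 +Glc, against 72.8 ± 9.33 CPM in ein2-5 −Glc (SD, n = 3 each). It averaged 162 ± 16.4 CPM in Col-0 +Glc, the highest group mean of all 52 genes, against 84.2 ± 11.5 CPM in Col-0 −Glc (SD, n = 3 each). It was lower in ein2-5 on average, at −0.80 ± 0.112 (limma, adjusted p = 4.93e-05). GUN4, which binds porphyrins and stimulates chlorophyll synthesis, was the enzyme-class member that was higher in ein2-5. It had 146, 108 and 86.5 CPM in ein2-5 +Glc, against 169.9, 137 and 133 CPM in ein2-5 −Glc, and 131, 131 and 98.4 CPM in Col-0 +Glc, against 78.9, 82.5 and 72.1 CPM in Col-0 −Glc, with an average genotype difference of 0.40 ± 0.12 (limma, adjusted p = 0.0116).

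CYP71B7, a cytochrome P450, averaged 56.1 ± 19.4 CPM in ein2-5 +Glc, against 69.6 ± 16.2 CPM in ein2-5 −Glc, and 112 ± 9.81 CPM in Col-0 +Glc, against 56.4 ± 1.24 CPM in Col-0 −Glc (SD, n = 3 each). The ein2-5 groups overlapped. GA2OX2, which inactivates gibberellins, and CYP71B7 passed the average genotype test narrowly, at −0.33 ± 0.135 (limma, adjusted p = 0.0498) and −0.38 ± 0.139 (limma, adjusted p = 0.0309). AT2G29360, of the NAD(P)-binding Rossmann-fold family, was also lower, at −0.80 ± 0.136 (limma, adjusted p = 2.16e-04). IGMT3, an indole glucosinolate methyltransferase, and the holocarboxylase synthetase AT5G64780 did not pass, at 0.27 ± 0.199 and −0.28 ± 0.129.

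Nucleic acid proteins and RNAs made a group of 6, of which 1 was lower in ein2-5 on average, 1 was higher and 4 did not pass. AT5G44680, of the DNA glycosylase family, had 40.4, 24.3 and 21.7 CPM in ein2-5 +Glc, against 76.1, 53.4 and 49.98 CPM in ein2-5 −Glc. It had 48.03, 40.2 and 43.1 CPM in Col-0 +Glc, against 31.9, 21.6 and 20.3 CPM in Col-0 −Glc. Neither genotype's conditions overlapped, and the responses were −1.06 ± 0.223 in ein2-5 and 0.83 ± 0.223 in Col-0. AT3G21530, of the DNase I family, was lower in ein2-5 on average, at −1.05 ± 0.127 (limma, adjusted p = 1.30e-05), and ECT6, of the family that reads N6-methyladenosine in RNA, was higher by 0.20 ± 0.0752 (limma, adjusted p = 0.035).

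The 14 genes with another or an unknown role split into 5 lower, 6 higher and 3 that did not pass the test. AT4G03460, an ankyrin repeat protein, had the largest Col-0 response of the 52, 1.95 ± 0.194. It had 2.45, 1.74 and 1.31 CPM in ein2-5 +Glc, against 3.15, 1.93 and 2.66 CPM in ein2-5 −Glc, and 16.1, 11.1 and 17.6 CPM in Col-0 +Glc, against 3.43, 3.09 and 2.69 CPM in Col-0 −Glc. The 9 other libraries lay below 4 CPM, and the average genotype difference was −1.34 ± 0.137 (limma, adjusted p = 3.35e-06).

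AT2G18193, a P-loop ATPase, had the largest ein2-5 response, −1.39 ± 0.224. It had 13.3, 7.19 and 7.85 CPM in ein2-5 +Glc, against 24.2, 26.3 and 26.2 CPM in ein2-5 −Glc, and 7.08, 11.9 and 9.49 CPM in Col-0 +Glc, against 5.79, 3.95 and 6.87 CPM in Col-0 −Glc. The ein2-5 −Glc libraries were above all others, and the ein2-5 +Glc and Col-0 +Glc libraries overlapped. It was higher in ein2-5 on average by 1.01 ± 0.159 (limma, adjusted p = 1.20e-04), a difference of 2.05 log2 units without glucose and −0.03 with it.

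AT5G64850, which the annotation names a sorbin/SH3 domain protein, had 36.4, 23.99 and 27.4 CPM in ein2-5 +Glc, against 45.6, 40.9 and 40.7 CPM in ein2-5 −Glc. It had 36.2, 34.6 and 33.1 CPM in Col-0 +Glc, against 16.5, 14.3 and 15.7 CPM in Col-0 −Glc. Neither pair of groups overlapped. The pseudogene AT1G58561 was the least even, with 23.5, 44.5 and 83.6 CPM in the 3 Col-0 +Glc libraries. It lies wholly inside AT1G58602 on the same strand. AT1G58602 was counted separately and responded by −0.62 in ein2-5 and −0.47 in Col-0, against −0.25 and 1.82 for AT1G58561. How reads were divided between them is not given.

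Not every gene was equally tied to the choice of libraries. The rule still held for 15 of the 52 when any single library was left out, among them MOT1, PDLP3, CRF6, AT4G03460, AT4G18205, AT5G62360 and AT5G07580, and for 4 under every setting tried: AT1G66100, AT2G04050, AT5G44680 and AT5G64850. These 4 were picked out after their values were seen. Without ein2-5 +Glc 2 and 3 and Col-0 −Glc 1 their ein2-5 responses were −0.53, −1.02, −0.53 and −0.21, while that of LOV1 was −0.06, that of AT4G03460 −0.04 and that of PUP7 0.31.

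Most close relatives by sequence did not meet the rule, which only 52 of all 19522 genes met. For 18 of the 52 genes another gene of the table matched over at least 50% of the exon sequence. Of these best matches 7 were at −0.2 or less in ein2-5 and 11 at 0.6 or more in Col-0. Of the 16011 genes past the level part, 4143 and 4217 met these limits, but the matches were not held to that part. Both held for 4, which are the pairs PUP7 with AT4G18205 and THI2.2 with AT1G66100. These 4 are among the 52 genes, so the rule fixed their result. The plasmodesmal protein PDLP2, the match of PDLP3, responded by 0.60 in ein2-5 and 1.43 in Col-0. The pectin lyase-like AT1G10640, the match of AT1G60590, responded by 0.70 in ein2-5 and 2.57 in Col-0. IGMT2, 96.3% identical to IGMT3, responded by 0.61 in ein2-5 and 2.24 in Col-0, and DTX1, the match of AT2G04050, by −0.69 in ein2-5 and −1.19 in Col-0. How reads of such copies were divided is not given in the sources used here.

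**Figure D5:**
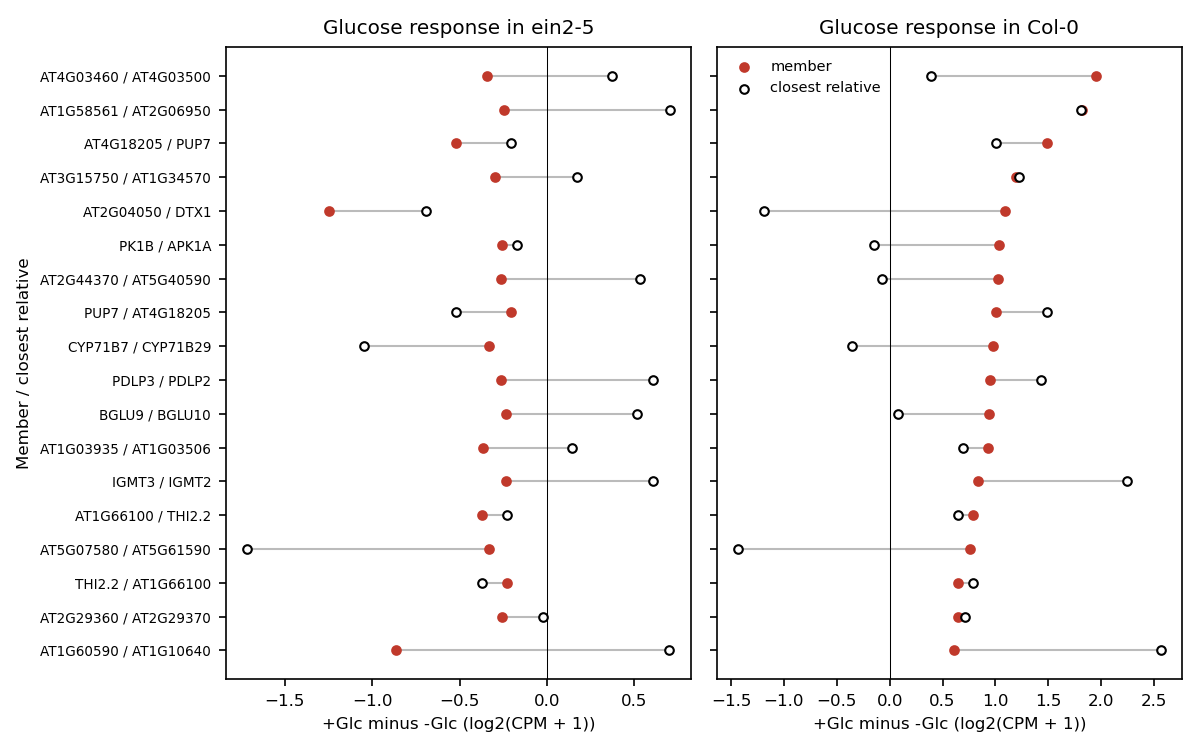
Glucose response in ein2-5 (left) and in Col-0 (right), as +Glc minus −Glc on the log2(CPM + 1) scale, of 18 genes of the 52 (red) and of the best-matching gene of the table over at least 50% of their exons (open). Red points are all below 0 on the left and above 0 on the right, as the rule requires, while open points lie on both sides of 0 in both panels.

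The strand setting of the counting is not given, so reads of overlapping genes on opposite strands cannot be told apart: LOV1 overlaps AT2G02455 by 808 bases, GUN4 overlaps GCN2 by 946 and PUP7 overlaps AT4G18203 by 814. The protein-coding genes among the 52 had a median of 1631.5 exon bases and 2.5 exons, against 1803 and 5 over all protein-coding genes of the table, and 30% had a single exon, against 15.1%. The 52 genes lay on all 5 chromosomes, with 16, 14, 7, 6 and 9 genes on chromosomes 1 to 5. These chromosomes held 26.3, 15.2, 19.8, 15.2 and 23.4% of all genes.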

How the data were processed

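Seedling mRNA was sequenced in 12 libraries, 4 groups of 3. The authors aligned reads with TopHat and counted them with HTSeq on TAIR10, per the submitters' processing notes; versions and strand setting are not given in the sources used here. The deposited values are in CPM (a unit read from the values), and 100.0% of 234264 values were whole multiples of 1 read within 0.01 reads. All 19522 genes were fitted together with limma-trend 3.58.1 (R 4.3.3) on log2(CPM + 1), 8 residual degrees of freedom, no filter, Benjamini-Hochberg threshold 0.05. Fold changes on this scale understate those of low genes. The contrasts were +Glc minus −Glc in each genotype, their difference, and ein2-5 minus Col-0 in each condition and on average; the last has an inner product of 0 with both responses. The members, lists and tests were chosen with earlier results of these data known. The rule for named genes took the 12 largest response differences, the 8 highest Col-0 +Glc levels, up to 6 average genotype differences each way, up to 3 per keyword class of product name, and the threshold neighbours, 38 of the 52 in all; the others named were chosen after their values were seen. Same-number deviations correlated at 0.564, 0.125 and 0.425 between the ein2-5 groups, each over the limit of 0.1 set for pairing. In no other comparison of a genotype or condition did all 3 pass. For number 2 the pairing is unsure, since ein2-5 +Glc 2 correlated better with ein2-5 −Glc 3, at 0.292. Alternatives were TMM scaling, rescaling, pseudocount 0.1, a filter, left-out libraries, a replicate block, and edgeR 4.0.16 and DESeq2 1.42.0 on the recovered reads. Replicates had Pearson r of 0.9688 to 0.9937. Annotation and sequences came from RefSeq TAIR10.1, which matched 19352 locus codes, and relatives from blastn 2.17.0.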

Additional observations from a re-analysis of the deposited data

How the results depend on the processing

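The rule found 52 genes with all libraries, and between 36 and 107 when 1 library was left out: 107 without ein2-5 +Glc library 1, 51 of them shared with the 52, and 36 without ein2-5 +Glc library 3, 29 of them shared. A filter was applied to the 52 genes only, so it could add none, and it kept all 52. The rule found 40 under TMM scaling (32 shared), 58 after rescaling without organelle and seed genes (50 shared) and 74 with a pseudocount of 0.1 (52 shared). It found 54 without ein2-5 +Glc 2 and 3 and Col-0 −Glc 1, named the 3 libraries below (15 shared). The cause was not tested. The number called lower with glucose in ein2-5, 13 (16.4% of all genes), was 23 under TMM scaling, 22 with edgeR and 24 with DESeq2. With 1 library left out it was 7 to 35: 7 without ein2-5 +Glc 3 or ein2-5 −Glc 1, 8 without ein2-5 −Glc 2 and 35 without ein2-5 +Glc 1. The share of all genes called was not counted in these settings. A shift of the 52 genes can therefore not be told from a shift of all genes. The median ein2-5 response was −0.0618 without the 3 libraries. Counts of the average genotype difference stayed within 1.5 times under all settings, and 31 of the 37 genes called kept their call and direction in each; CRF6 was at 0.32 without the 3 libraries, against −0.03. For all genes called in the average genotype difference the count was 11684 with limma and 12171 with edgeR.

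Replicate numbers are shared between groups, and over all groups they did not pair the libraries. Of 18 same-number pairs, 11 had a correlation of deviations above 0.1 (−0.257 to 0.564), and the library of the same number correlated best in 19 of 36 cases. The ein2-5 groups alone passed the pairing check. With the number as a replicate block, 25 genes were called lower with glucose in ein2-5 (18.0% of all genes). Fits of the ein2-5 libraries alone were added after seeing the data. They called 24 with the block (16.6% of all genes) and 10 without it (12.4%). In the block fit of all libraries 6 gained and 0 lost a call in the average genotype difference. Counts of 10 reads limit the lowest genes.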
